A study of Mus musculus with 22 samples.

Results

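The transcripts of 10 core circadian clock genes were followed in 22 mouse kidneys: the activators Arntl, Clock and Npas2, the repressors Per1, Per2, Per3, Cry1 and Cry2, and the nuclear receptors Nr1d1 and Nr1d2. They are the rows of the count table that carry these symbols, 10 of the 32858 genes listed, and all 10 had enough reads to enter the tests, as did 17131 genes in all. The list was chosen by textbook membership of the clock, but with the library-scaled counts (CPM) of Per2 and Cry1 under KW6002, and of clock genes in both mouse label series, already in view. For the members, comparisons of KW6002 with vehicle and of the label series are therefore described without a test. Fits of c5 kidneys alone, or with a label series term, use the split that was in view. Their p-values for the members are not independent support.

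The circadian clock is a feedback loop of transcription that runs in most cells, kidney tubules included. ARNTL (also called BMAL1) pairs with CLOCK or its paralog NPAS2 and switches on the Per, Cry and Nr1d genes through E-box sequences. PER and CRY proteins then return to the nucleus and block that pair, whereas NR1D1 and NR1D2 (REV-ERB alpha and beta) repress Arntl, Npas2, Cry1 and other genes that carry receptor elements, so that transcripts of the opposing arms peak at opposite phases of the day.

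Kidneys came from male C57Bl6/J mice of 8 to 10 weeks. Cisplatin, a platinum drug that injures kidney tubules, was injected intraperitoneally at 3 mg/kg once a day for 6 days, and tissue was collected 72 hours after the last dose. KW6002 (istradefylline), an adenosine receptor antagonist, was injected at 3 mg/kg daily from day -5 to day 7. The vehicle group held 5 mice that received only the carrier (DMSO, cremophor and saline), the KW6002 group 6 mice, the cisplatin group 5 mice, and the group given cisplatin plus KW6002, called co-treated here, 6 mice, with 1 library per mouse. The names of 3 vehicle and 3 KW6002 mice begin with c3, and those of the other 16 mice, all cisplatin and co-treated mice among them, begin with c5. What the series stands for is not given in the sources used here, nor is the hour at which each kidney was taken, a limit for any reading of genes that cycle over the day. A vehicle kidney and a cisplatin kidney can thus differ in label series as well as in treatment, so each contrast is also given with c5 kidneys alone.

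Libraries held 26471762 to 40510754 counts (median 32721214.5), and Npas2, the scarcest member, was counted 28 to 217 times per library. The labelled tissue was borne out by markers of the proximal tubule, whose 6 genes summed to 14220 to 15060 CPM in vehicle kidneys. That sum was 1579 to 2819 CPM with cisplatin and 6175 to 9207 CPM in co-treated kidneys, and 6 of 6 of these markers fell with cisplatin. Fibroblast markers went from 129 to 218 CPM in vehicle kidneys to 413 to 498 CPM with cisplatin, and 3 of 3 rose. In bulk tissue, fewer cells of a type and less RNA per cell cannot be told apart, and the part of this changed makeup in the clock values was not tested. Fat markers varied from 3.92 to 678 CPM across libraries, and 1 co-treated kidney held 83.4 CPM of adrenal cortex markers against at most 2.74 CPM in the kidneys of the other groups.

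In GENCODE M21 on mm10 the activators are Arntl (ENSMUSG00000055116, chr7:113207465-113314126, plus strand), Clock (ENSMUSG00000029238, chr5:76209868-76304792, minus strand) and Npas2 (ENSMUSG00000026077, chr1:39193731-39363236, plus strand). The period genes are Per1 (ENSMUSG00000020893, chr11:69095217-69109960, plus strand), Per2 (ENSMUSG00000055866, chr1:91415982-91459324, minus strand) and Per3 (ENSMUSG00000028957, chr4:151003652-151044665, minus strand), the last inside the span of Camta1 on the same strand without shared exons. The cryptochromes are Cry1 (ENSMUSG00000020038, chr10:85131700-85185064, minus strand) and Cry2 (ENSMUSG00000068742, chr2:92403646-92434043, minus strand), and the nuclear receptors are Nr1d1 (ENSMUSG00000020889, chr11:98767932-98775333, minus strand) and Nr1d2 (ENSMUSG00000021775, chr14:18204054-18239127, minus strand).

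Sequence upstream of the members is shown because the loop is written in promoter elements. RefSeq promoters (GRCm38.p6, from 250 bases before to 50 after an annotated start) were held for 9 of the 10 members, some with several entries. They were searched on both strands for the E-box CACGTG, the E'-box CACGTT, the D-box spellings TTATGTAA and TTACGTAA, the nuclear receptor motif AGGTCA and the cyclic AMP response element TGACGTCA. These motifs do not contain each other. The entries below belong to an activator, to a nuclear receptor and to Per1, the member with the largest log2 fold change under cisplatin in the fit of all kidneys, each on the strand of its gene, 5′ to 3′, with motif matches in capitals. The entry at chr7:113207261-113207560 (plus strand) for Arntl holds AGGTCA 32 bases after the start, that at chr11:69098699-69098998 (plus strand) for Per1 holds CACGTG at -166 and AGGTCA on the opposite strand at -137 and lies inside the annotated span of the gene, and that at chr11:98775328-98775627 (minus strand) for Nr1d1 holds CACGTT on the opposite strand at -28.
Arntl: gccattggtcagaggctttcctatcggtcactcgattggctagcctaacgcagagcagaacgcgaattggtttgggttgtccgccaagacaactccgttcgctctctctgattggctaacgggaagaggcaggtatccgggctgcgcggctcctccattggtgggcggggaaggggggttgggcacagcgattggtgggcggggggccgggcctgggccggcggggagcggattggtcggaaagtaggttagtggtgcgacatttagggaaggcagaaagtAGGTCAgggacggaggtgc
Per1: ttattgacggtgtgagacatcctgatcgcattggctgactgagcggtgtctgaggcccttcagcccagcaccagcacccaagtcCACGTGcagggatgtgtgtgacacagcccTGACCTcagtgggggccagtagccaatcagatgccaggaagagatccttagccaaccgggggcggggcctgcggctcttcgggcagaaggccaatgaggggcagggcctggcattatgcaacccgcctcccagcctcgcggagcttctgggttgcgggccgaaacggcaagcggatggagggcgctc
Nr1d1: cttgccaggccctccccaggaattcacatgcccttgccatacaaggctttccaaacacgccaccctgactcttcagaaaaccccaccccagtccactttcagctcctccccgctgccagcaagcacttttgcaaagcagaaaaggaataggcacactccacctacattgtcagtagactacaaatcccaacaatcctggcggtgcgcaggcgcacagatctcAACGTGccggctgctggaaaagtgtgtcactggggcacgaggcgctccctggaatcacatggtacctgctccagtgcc

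Cry1 carried CACGTG at -60 and CACGTT at -79, Cry2 carried CACGTT at -166, Per3 carried TTATGTAA at -205 and again at -158, and Nr1d2 and Clock carried AGGTCA at -77 and -119. Thus 2 members held CACGTG and 3 held CACGTT, against 8.09% and 5.44% of the 27025 genes with such entries. AGGTCA was found for 4 members and in 18.1% of genes, TTATGTAA for 1 member and in 1.11% of genes. TTACGTAA (0.126% of genes) and TGACGTCA (2.03% of genes) were found for 0 members. These are matches of letters in a short window, and they do not show that a factor binds.

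Per length, that is as CPM per kilobase of annotated exon, the nuclear receptors stood highest in vehicle kidneys. Nr1d1 was at 35.98 ± 17.14 (SD, n = 5) and Nr1d2 at 27.86 ± 3.165 CPM per kilobase, with ranges that overlapped. Per2 (9.53 ± 2.20) and Per1 (9.46 ± 2.55) followed and did not differ beyond their spread. Per3 (6.343 ± 0.7966), Cry2 (5.744 ± 0.8285) and Clock (5.267 ± 0.3982) came next by mean. Their ranges overlapped each other and that of Per1 (5.75 to 11.9), and the range of Per3 also overlapped that of Per2. Cry1 was at 1.61 ± 0.964, Arntl at 0.595 ± 0.0898 and Npas2 at 0.437 ± 0.0903 CPM per kilobase, and the ranges of the last pair overlapped while that of Cry1 lay above both. With cisplatin the order changed at the top, where Per1 led at 32.98 ± 1.345 CPM per kilobase (n = 5) ahead of Nr1d1 at 19.80 ± 1.649 and Nr1d2 at 18.54 ± 1.063.

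**Figure D1:**
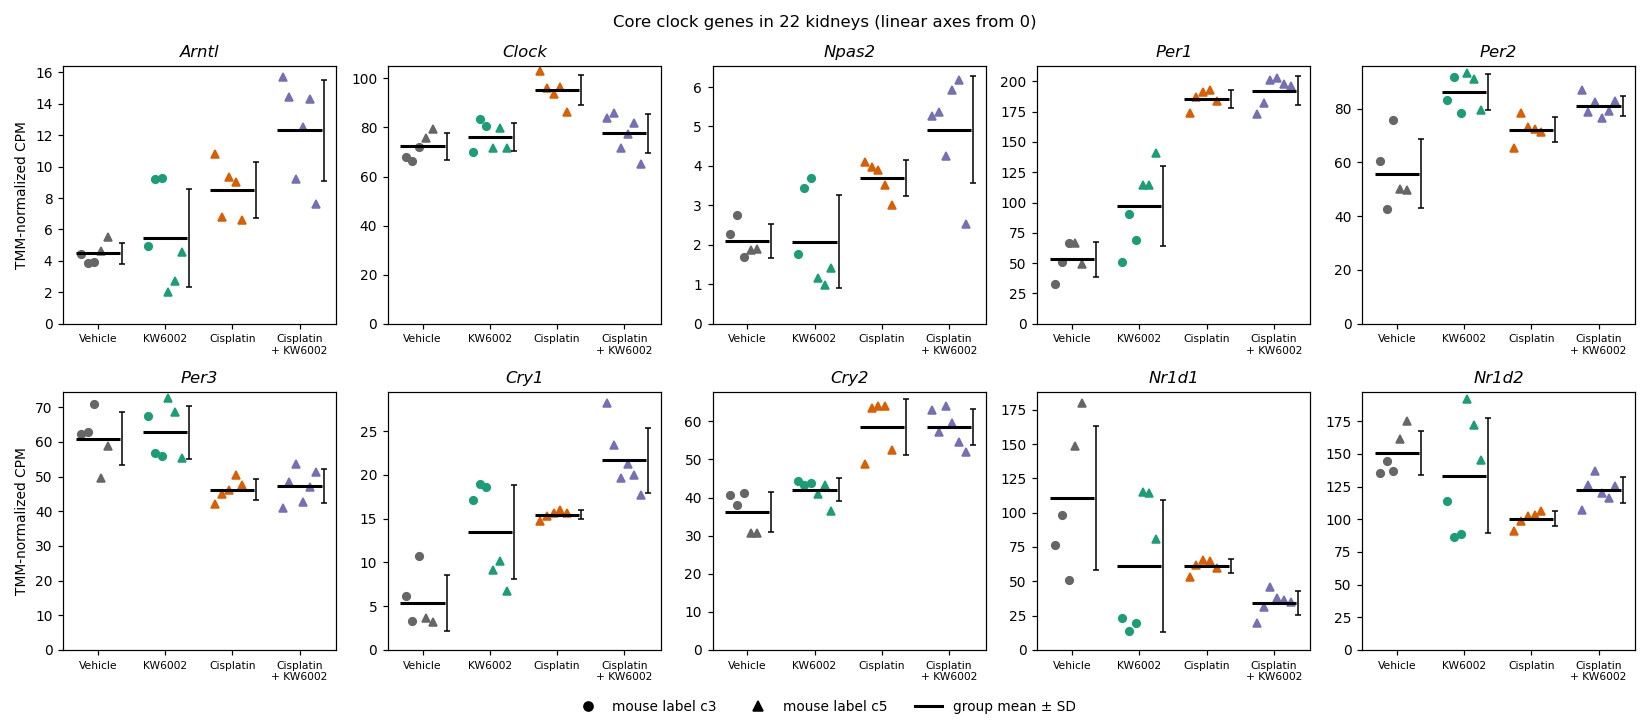
CPM after TMM scaling (y axes, linear from 0) of the 10 members in each of the 22 kidneys, by treatment group on the x axis, with circles for c3 and triangles for c5 mouse labels and lines and bars for the group mean ± SD. Per1 was at 174 to 193 CPM in the cisplatin kidneys and at 32.4 to 67.0 CPM in the vehicle kidneys, and Nr1d1 in the KW6002 group split into 3 kidneys at 13.9 to 23.1 CPM and 3 at 80.9 to 115 CPM.

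The label series separated the kidneys that received no cisplatin, and Nr1d1 differed most. Vehicle kidneys with c3 labels held 76.3, 98.5 and 50.6 CPM of Nr1d1, and those with c5 labels 149 and 180 CPM. KW6002 kidneys with c3 labels held 23.1, 13.9 and 19.8 CPM, and those with c5 labels 115, 115 and 80.9 CPM. In both treatments every c3 kidney lay below every c5 kidney, and the label term of the model was -1.86 on the log2 scale (SE 0.23). Nr1d2, the paralog, shifted in the same direction (-0.58, SE 0.10), with 135, 145 and 137 CPM against 161 and 175 CPM in vehicle kidneys and 114, 86.4 and 88.8 CPM against 192, 172 and 145 CPM with KW6002.

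Cry1, the cryptochrome repressor with the lower level per length, ran the other way, with a label term of 1.05 (SE 0.19). Its 3 KW6002 kidneys with c3 labels held 17.2, 18.9 and 18.6 CPM, above the 9.13, 10.1 and 6.71 CPM of those with c5 labels. In vehicle kidneys the c3 values of 6.18, 3.25 and 10.7 CPM overlapped the c5 values of 3.63 and 3.12 CPM. Label terms were 0.82 for Npas2, 0.59 for Arntl, -0.55 for Per1 and 0.24 for Cry2. They lay between -0.04 and 0.08 for Clock, Per2 and Per3. The term joins both treatments, between which some c3 over c5 ratios of means pointed in opposite directions. With vehicle and KW6002 these ratios were 0.803 and 2.52 for Arntl, 0.886 and 1.05 for Clock, 1.2 and 0.960 for Per2, and 1.205 and 0.916 for Per3. In vehicle kidneys the series overlapped for Per2 but not for Arntl, Clock or Per3. With KW6002 they overlapped for Clock, Per2 and Per3 but not for Arntl. The median absolute label term was 0.565 over the 10 members and 0.122 over all genes tested. Over the members it was 0.272 in a fit of vehicle kidneys only and 0.811 in a fit of KW6002 kidneys only. Between series, 6 of 10 members did not overlap in vehicle kidneys and 6 of 10 did not with KW6002, where 37.6% and 26.5% of all genes did not overlap.

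Within groups, Nr1d1 had an SD of 0.836 on the log2 scale, at the 98.7th percentile of the genes tested. Once label series was taken out as well, its SD was 0.340, at the 76.9th percentile, below Arntl (81.9th), Npas2 (80.4th) and Cry1 (77.8th). Arntl had a within-group SD of 0.542, Npas2 of 0.504 and Cry1 of 0.502, whereas Clock (0.119), Per3 (0.157), Cry2 (0.158) and Per2 (0.171) sat near the median gene at 0.171. The spread of Nr1d1 was 1.38 in the KW6002 group and 0.734 in the vehicle group, both with kidneys of either series, but 0.124 with cisplatin and 0.409 with co-treatment. One dispersion per gene is shared by all groups in the tests, so the spread of the mixed groups enters every standard error of Nr1d1. Proximal tubule markers did not follow the series (0 of 6 passed the test), 2 of 4 macrophage markers were higher in c3 kidneys, and fat markers were at 103 to 678 CPM in c3 and 44.9 to 101 CPM in c5 vehicle kidneys but overlapped with KW6002, at 10.2 to 314 CPM in c3 and 70.8 to 135 CPM in c5 kidneys. The part of those cells in the clock differences was not tested.

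**Figure D2:**
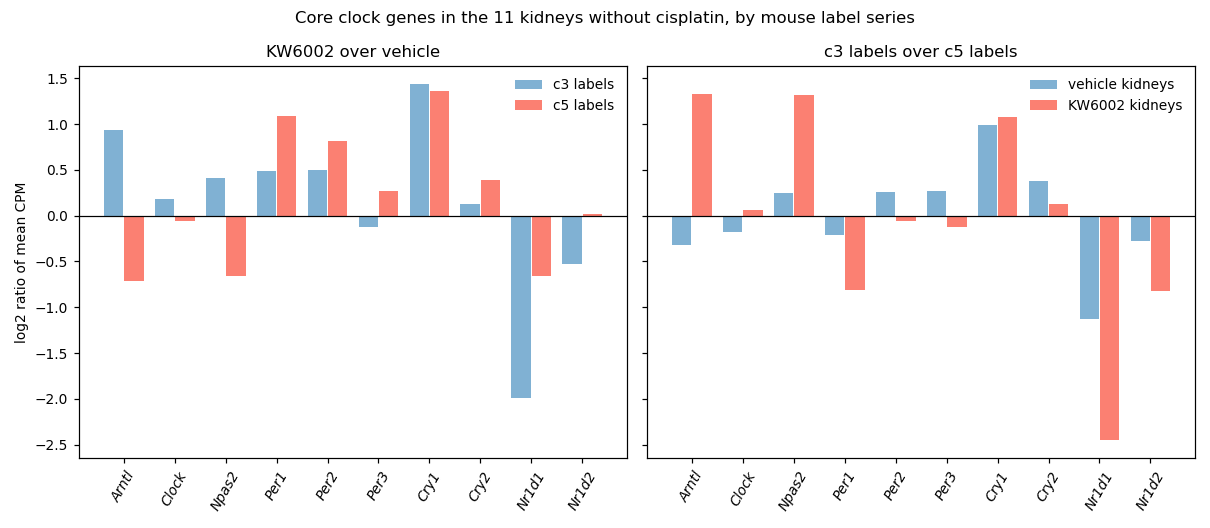
Log2 ratios of mean CPM (y axis) for the 10 members in the 11 kidneys without cisplatin, on the left KW6002 over vehicle within c3 labels (n = 3 and 3) and within c5 labels (n = 3 and 2), on the right c3 over c5 labels within vehicle and within KW6002 kidneys. Bars for Cry1 and Per2 on the left point up in both series, those for Nr1d1 point down in both, and those for Arntl and Npas2 point up in c3 and down in c5.

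Cisplatin against vehicle asked how the injured kidney differed from that of mice given only the carrier. Of the 10 members, 7 rose and 2 fell at an adjusted p below 0.05, 9 in all, in a comparison that called 70.5% of all genes (34.6% higher and 35.9% lower). Past an adjusted p of 0.01 and a log2 fold change beyond 1, 2 members were higher, Per1 and Cry1, against 12.1% of all genes. The groups did not overlap for 7 members, against 55.3% of all genes. The median absolute log2 fold change was 0.757 for the members and 0.480 for all genes. With c5 kidneys alone, of which 2 are vehicle kidneys, 9 members had an adjusted p below 0.05, where 63.1% of all genes did. The members differed: Nr1d1 passed (adjusted p = 4.29e-06) and Per3 did not (adjusted p = 0.0687).

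All 3 activators rose with cisplatin. Arntl, the partner shared by CLOCK and NPAS2, was at 4.44, 3.85, 3.93, 4.61 and 5.53 CPM in vehicle kidneys and at 10.8, 6.81, 9.35, 9.04 and 6.57 CPM with cisplatin. The groups did not overlap, and the log2 fold change was 0.93 (SE 0.31, adjusted p = 0.00978). Npas2 was at 2.27, 2.77, 1.68, 1.87 and 1.89 CPM in vehicle kidneys and at 4.10, 3.97, 3.89, 3.50 and 3.00 CPM with cisplatin. Every cisplatin kidney was again above every vehicle kidney (0.82, SE 0.29, adjusted p = 0.0165). Clock changed least, from 68.0, 66.2, 72.1, 75.8 and 79.5 CPM to 103, 96.0, 93.8, 96.5 and 86.3 CPM, with no overlap (0.40, SE 0.07, adjusted p = 4.31e-05).

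Per1, a period repressor that also responds to hormonal and stress signals, had the largest log2 fold change in the fit of all kidneys. Vehicle kidneys held 32.4, 51.0, 67.0, 66.6 and 49.5 CPM and cisplatin kidneys 174, 187, 191, 193 and 184 CPM. The lowest cisplatin kidney was well above the highest vehicle kidney, and the log2 fold change was 1.80 (SE 0.20, adjusted p = 3.96e-08), a 3.49-fold ratio of means. With c5 kidneys alone it was 1.67 (adjusted p = 9.44e-10), and Cry1 then had the larger log2 fold change, 2.19. The other period genes moved less and in opposite directions. Per2 went from 60.7, 42.8, 75.8, 50.05 and 49.6 CPM to 65.2, 78.2, 73.2, 72.6 and 71.4 CPM, with overlap through 1 vehicle kidney (0.37, SE 0.10, adjusted p = 0.00263). Per3 fell, from 62.4, 63.0, 70.8, 49.7 and 58.8 CPM to 42.2, 44.8, 46.0, 50.4 and 47.5 CPM, with overlap through 1 kidney of each group (-0.40, SE 0.09, adjusted p = 5.65e-04). With c5 kidneys alone the Per3 difference was -0.24 and missed the threshold (adjusted p = 0.0687).

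Both cryptochromes, which with PER proteins block the activators, rose with cisplatin. Cry1 was at 6.18, 3.25, 10.7, 3.63 and 3.12 CPM in vehicle kidneys and at 14.8, 15.2, 15.6, 16.02 and 15.7 CPM with cisplatin. The vehicle values were spread out and the cisplatin values close together, with no overlap (1.52, SE 0.29, adjusted p = 7.96e-05). Against the c5 vehicle kidneys alone the Cry1 difference was 2.19 (adjusted p = 1.57e-08). Cry2 was at 40.8, 37.98, 41.3, 30.8 and 30.7 CPM in vehicle kidneys and at 48.8, 63.6, 64.1, 64.0 and 52.5 CPM with cisplatin (0.69, SE 0.09, adjusted p = 7.25e-07), without overlap. Cry2 shares 295 exonic bases, 4.67% of its exons, with D930015M05Rik on the opposite strand, which was counted 73 times over all libraries against 35466 times for Cry2.

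The nuclear receptors had lower means with cisplatin, and in the fit of all kidneys Nr1d2 passed the threshold and Nr1d1 did not. Nr1d2 was at 135, 145, 137, 161 and 175 CPM in vehicle kidneys and at 91.2, 98.4, 103, 103 and 106 CPM with cisplatin, without overlap (-0.59, SE 0.16, adjusted p = 0.00239). Nr1d1 was at 76.3, 98.5, 50.6, 149 and 180 CPM in vehicle kidneys and at 53.1, 61.6, 65.7, 64.9 and 59.4 CPM with cisplatin. Of the vehicle kidneys, 1 lay below and 4 above the narrow cisplatin range, and the log2 fold change of -0.86 (SE 0.45) had an adjusted p of 0.0920. With c5 kidneys alone, where the vehicle values were 149 and 180 CPM, the groups did not overlap and the difference was -1.43 (adjusted p = 4.29e-06). Without vehicle replicate 3, the c3 kidney at 50.6 CPM, it was -1.05 (adjusted p = 0.0477). It also passed with only the vehicle and cisplatin kidneys in the fit (-0.86, adjusted p = 0.0136) and with the label series as a covariate (-1.90, adjusted p = 2.46e-06), where all 10 members passed. The label term of that last fit also drew on KW6002 kidneys, where c3 over c5 was 0.183, against 0.458 in vehicle kidneys. The c5 fit and the label covariate use the split that was in view when the genes were listed. Their p-values for Nr1d1 are not independent of that choice. With DESeq2, other scalings or filters, a block for replicate number, or any other single library left out, Nr1d1 missed the threshold. Nr1d1 shares 263 exonic bases (8.55% of its exons) with Thra on the opposite strand. Because the sources do not state whether counting used strand, the assignment of reads there is uncertain.

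**Figure D3:**
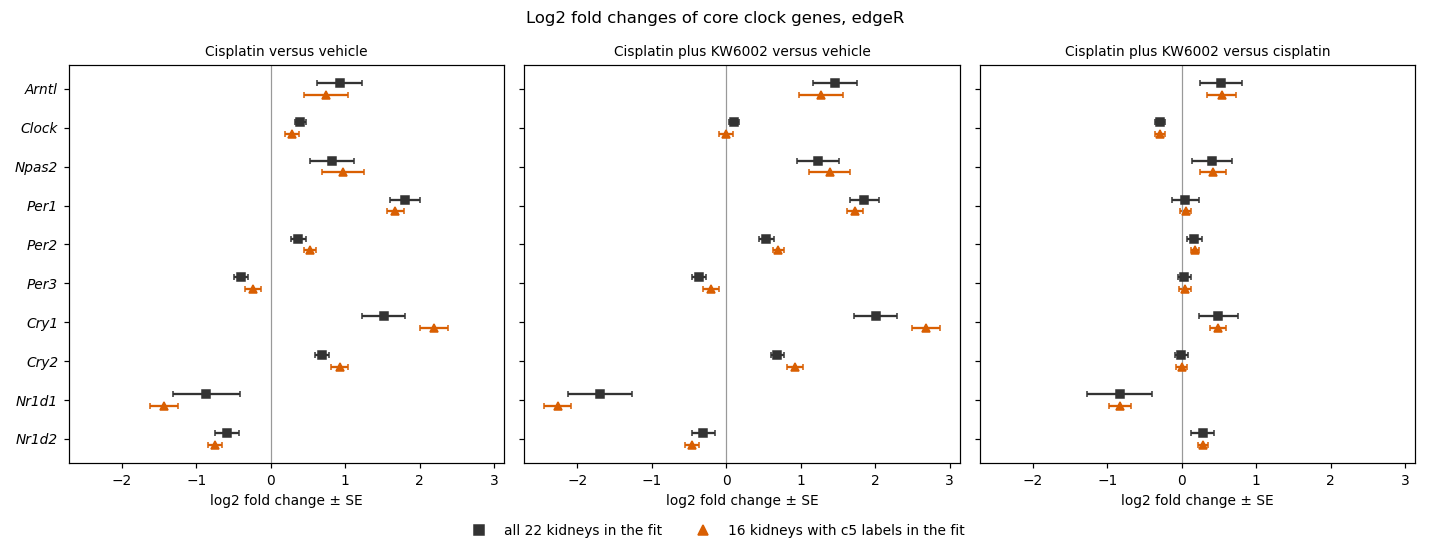
Log2 fold changes ± SE (x axes) of the 10 members in the 3 contrasts that were tested, with squares for the fit of all 22 kidneys and triangles for the fit of the 16 kidneys with c5 labels. The position for Nr1d1 in cisplatin against vehicle moves from -0.86 to -1.43 and that for Cry1 from 1.52 to 2.19, whereas in co-treated against cisplatin kidneys the positions stay and the bars shorten.

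Co-treated against cisplatin kidneys asked what KW6002 changed in mice given cisplatin, and all 11 kidneys of this contrast carry c5 labels. One member passed the test, Clock, so that 1 of 10 was called where 55.8% of all genes were, and the groups did not overlap for 4 members, against 37.8% of all genes. Clock was lower in co-treated kidneys, at 65.2 CPM in the lowest, a median of 79.7 and 85.8 CPM in the highest (n = 6), against 86.3 to 103 CPM with cisplatin alone (-0.29, SE 0.07, adjusted p = 0.00101). Of the co-treated kidneys, 3 lay above, 2 within and 1 below the vehicle range of 66.2 to 79.5 CPM.

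The count of members past the threshold differed between fits. When only the cisplatin and co-treated kidneys were fitted, 6 of 10 members passed, where 59.0% of all genes did, and with all c5 kidneys also 6, where 57.5% did. Nr1d1 was at 19.8 CPM in the lowest, a median of 35.6 and 45.9 CPM in the highest co-treated kidney, all below the 53.1 to 65.7 CPM of the cisplatin kidneys. Its difference of -0.83 missed the threshold with all kidneys in the fit (SE 0.43, adjusted p = 0.108) and passed with these groups alone (adjusted p = 3.09e-04). Cry1 was at 17.7, a median of 20.6 and 28.2 CPM with co-treatment, all above the cisplatin kidneys, and had a log2 fold change of 0.49 (adjusted p = 0.118 with all kidneys and 7.52e-04 with these groups). Nr1d2 was at 107, a median of 123 and 137 CPM, also without overlap (0.28, adjusted p = 0.121 and 0.00118).

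Arntl and Per2 were the other members that passed when only these groups were fitted. Arntl was at 7.62 CPM in the lowest, a median of 13.4 and 15.7 CPM in the highest co-treated kidney, and the lower kidneys overlapped the cisplatin group (0.53, SE 0.28, adjusted p = 0.112 with all kidneys and 0.0252 with these groups). Per2 was at 76.4, a median of 81.0 and 86.9 CPM and overlapped the highest cisplatin kidney at 78.2 CPM (0.17, adjusted p = 0.142 and 0.0110). Npas2 was at 2.52, a median of 5.32 and 6.18 CPM (0.41, adjusted p = 0.199). Per1 (173 to 203 CPM), Per3 (40.9 to 53.7 CPM) and Cry2 (52.1 to 64.2 CPM) overlapped the cisplatin kidneys. Their log2 fold changes were 0.05 (SE 0.19), 0.04 (SE 0.09) and -0.00 (SE 0.09), and none passed in any of these 3 fits.

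Co-treated kidneys were also compared with vehicle kidneys, to see which members differed from the kidney of mice given only the carrier. Here 6 members were higher and 2 lower, 8 of 10 in all, against 59.7% of all genes (29.8% higher and 29.9% lower). Past the stricter limits there were 5 members, Arntl, Npas2, Per1, Cry1 and Nr1d1, against 13.4% of all genes, and 6 did not overlap, against 37.5% of all genes. Cry1 had the largest log2 fold change, 2.01 (SE 0.29, adjusted p = 2.93e-06), a 4.04-fold ratio of means, followed by Per1 at 1.85 (adjusted p = 4.19e-08) and Nr1d1 at -1.69 (SE 0.43, adjusted p = 0.00200). Every co-treated kidney held less Nr1d1 than every vehicle kidney of either series.

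Arntl was 1.46 higher on the log2 scale (adjusted p = 2.13e-04) and Npas2 1.24 (adjusted p = 7.61e-04), and Cry2 (0.69), Per2 (0.54) and Per3 (-0.37) also passed. Clock (0.10, adjusted p = 0.211) and Nr1d2 (-0.30, adjusted p = 0.0896) did not. In the c5 kidneys alone 8 members again passed, where 48.3% of all genes did, but the members differed: Nr1d2 passed (-0.46, adjusted p = 5.49e-04) and Per3 did not (-0.20, adjusted p = 0.138). This contrast shares its vehicle kidneys with that of cisplatin alone. Side by side, the log2 fold change over vehicle was -0.86 with cisplatin and -1.69 with co-treatment for Nr1d1, 0.93 and 1.46 for Arntl, 1.52 and 2.01 for Cry1, and 0.40 and 0.10 for Clock. In the same order it was -0.59 and -0.30 for Nr1d2, 0.82 and 1.24 for Npas2, and 0.37 and 0.54 for Per2. Per1 (1.80 and 1.85), Cry2 (0.69 and 0.69) and Per3 (-0.40 and -0.37) were close in both.

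KW6002 without cisplatin against vehicle was the contrast in view when the genes were listed, and its values are a description. Per2 was the 1 member of 10 whose groups did not overlap, against 1.38% of all genes. It was at 78.3 CPM in the lowest, a median of 87.2 and 93.4 CPM in the highest KW6002 kidney (n = 6), and at 42.8 to 75.8 CPM in the vehicle kidneys, with a log2 fold change of 0.63 (SE 0.10). Cry1 had the largest difference, 1.32 (SE 0.29), with 6.71, a median of 13.7 and 18.9 CPM against 3.12 to 10.7 CPM, and Per1 came next at 0.86 (SE 0.19). Nr1d1 was at -0.86 (SE 0.43), Arntl at 0.30, Cry2 at 0.21 and Nr1d2 at -0.18, and Clock, Per3 and Npas2 lay between 0.01 and 0.07. The median absolute log2 fold change was 0.254 over the members and 0.0935 over all genes.

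The contrast was also read within each label series. Within c3 kidneys, 6 of 10 members did not overlap between KW6002 and vehicle, against 17.5% of all genes, and within c5 kidneys 7 of 10 did not, against 30.7%. Cry1 was 2.72 times its vehicle mean in c3 and 2.56 times in c5 kidneys, and Per2 was 1.41 and 1.77 times its vehicle mean, with no overlap in either series. Nr1d1 was 0.252 times its vehicle mean in c3 and 0.632 times in c5 kidneys, also without overlap. Per1 was 2.13 times its vehicle mean in c5 kidneys, at 115, 115 and 141 CPM against 66.6 and 49.5 CPM, whereas in c3 kidneys the values of 51.3, 90.6 and 69.0 CPM overlapped those of vehicle.

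Arntl moved in opposite directions. In c3 kidneys it was at 4.94, 9.22 and 9.28 CPM with KW6002, above the vehicle values of 4.44, 3.85 and 3.93 CPM. In c5 kidneys it was at 2.04, 2.71 and 4.56 CPM, below the vehicle values of 4.61 and 5.53 CPM. Npas2 was at 1.77, 3.45 and 3.69 CPM in c3 and at 1.17, 0.984 and 1.42 CPM in c5 KW6002 kidneys, of which the latter lay below and the former overlapped vehicle. Nr1d2 was 0.693 times its vehicle mean in c3 kidneys, without overlap, and 1.01 times in c5 kidneys. With 3 against 3 and 3 against 2 kidneys these are small sets, and the difference between the series was not tested.

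**Figure D4:**
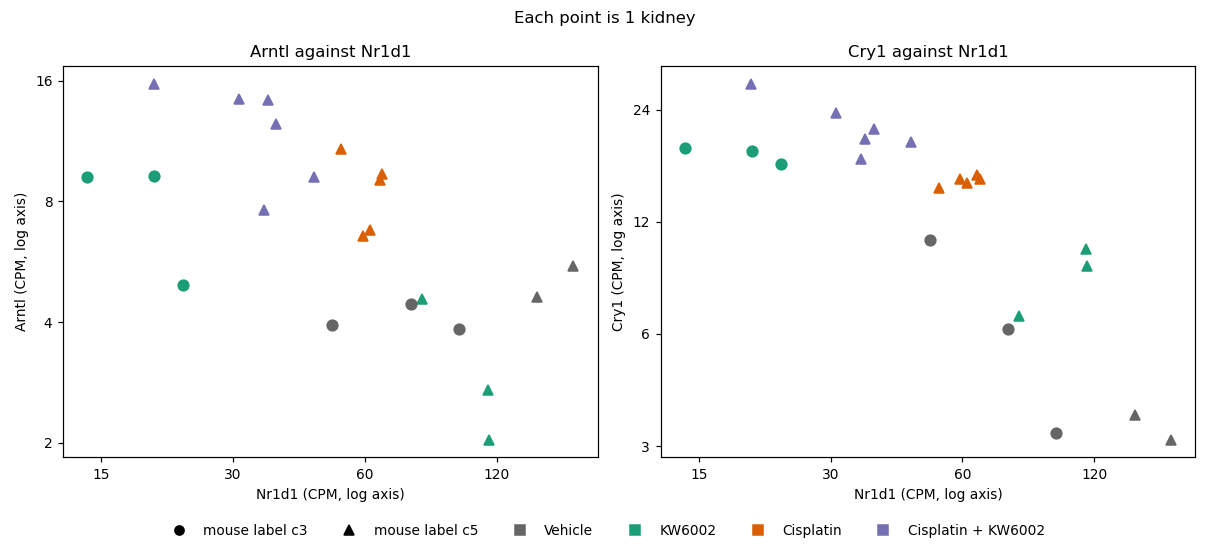
Each point is 1 kidney, with Nr1d1 on the x axis and Arntl (left) or Cry1 (right) on the y axis, all in CPM on log axes, colours for treatment and symbols for label series. The 6 co-treated kidneys lie at 19.8 to 45.9 CPM of Nr1d1 with 17.7 to 28.2 CPM of Cry1, and the 2 vehicle kidneys with c5 labels lie at 149 and 180 CPM of Nr1d1 with 3.63 and 3.12 CPM of Cry1.

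The values of Nr1d1, Cry1, Arntl and Npas2 can be set side by side in single kidneys. The c3 KW6002 kidneys, with 13.9 to 23.1 CPM of Nr1d1, held 17.2 to 18.9 CPM of Cry1, and the c5 vehicle kidneys, with 149 and 180 CPM of Nr1d1, held 3.12 and 3.63 CPM of Cry1. Arntl was less regular, since the kidney with 23.1 CPM of Nr1d1 held 4.94 CPM of Arntl, within the 3.85 to 5.53 CPM of vehicle kidneys. The c5 KW6002 kidneys, at 80.9 to 115 CPM, held less Nr1d1 than the c5 vehicle kidneys. Their Arntl was also lower, at 2.04 to 4.56 against 4.61 and 5.53 CPM. Npas2 was lower too, at 0.984 to 1.42 against 1.87 and 1.89 CPM, whereas Cry1 was higher, at 6.71 to 10.1 CPM. The vehicle kidney with 50.6 CPM of Nr1d1 held 3.93 CPM of Arntl and 10.7 CPM of Cry1. The cisplatin kidneys, narrow in Nr1d1 at 53.1 to 65.7 CPM, ranged from 6.57 to 10.8 CPM in Arntl. These are values in shared libraries, described without a test. The kidneys set side by side differ in treatment and label series, and the hour of collection is not given. Repression by the receptor and a difference in time of day cannot be told apart here.

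Profiles like those of 3 members were looked for over the 22 kidneys after the group mean was taken off, by Pearson r of log2 CPM among 12755 genes that are not members. The kidneys share libraries and label series, and r is a description. Between members, r was 0.941 for Nr1d1 with Nr1d2 and 0.842 for Arntl with Npas2. Outside the members, the closest to Nr1d1 were Rere (r = 0.940), Tns2 (r = 0.928) and Ciart (r = 0.921), the last of which encodes a clock-associated repressor. For Arntl they were 2210011C24Rik (r = 0.816), Serpinb6b (r = 0.798) and Ypel2 (r = 0.793), and for Per2 Babam2 (r = 0.776), Ccdc148 (r = 0.709) and Gm7932 (r = 0.691).

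Beside the members, 19 other clock genes were listed and tested, among them the ROR activators, the PAR bZIP factors, casein kinases and the ubiquitin ligase subunits that turn over PER and CRY. With cisplatin 16 of 19 passed the test, 8 higher and 8 lower. In co-treated against cisplatin kidneys 7 passed (4 higher and 3 lower), and in co-treated against vehicle kidneys 14 (7 in each direction). The share of all genes in these contrasts was 70.5%, 55.8% and 59.7%. With c5 kidneys alone 13, 11 and 13 of these genes passed, where 63.1%, 57.5% and 48.3% of all genes did.

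The 4 with the largest change under cisplatin were D-box factors and a paralog of Arntl. Nfil3, which represses through D-boxes, was at 15.5 to 21.7 CPM with cisplatin and at 2.43 to 4.20 CPM in vehicle kidneys (2.47, adjusted p = 1.62e-06). Hlf and Dbp, which activate through the same element, fell: Hlf from 157 to 184 CPM down to 32.9 to 60.6 CPM (-1.99, adjusted p = 7.85e-13) and Dbp from 77.9 to 131 CPM down to 28.6 to 62.1 CPM (-1.42, adjusted p = 0.00104). Arntl2 rose from 1.27 to 2.49 CPM to 4.47 to 6.58 CPM (1.52, adjusted p = 9.32e-08). In co-treated kidneys Hlf stood at 99.0 to 136 CPM and Arntl2 at 2.12 to 2.74 CPM, both between the vehicle and cisplatin means, whereas Nfil3 stood at 18.8 to 31.1 CPM and Dbp at 25.4 to 51.7 CPM, both with ranges that overlapped those of the cisplatin kidneys.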

How the data were processed

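Kidney mRNA of 22 mice was measured by RNA-Seq. The authors made stranded mRNA libraries, read 50 bases from one end, aligned reads to mm10 with STAR, kept unique alignments, and counted reads per Ensembl gene with HTSeq 0.6.1p1 in union mode. The strand setting is not given in the sources used here. The deposited unit is the count per gene and library, not normalized, and 66 unnamed empty columns were not used. Symbols and exons came from GENCODE M21 (32824 of 32858 genes matched).

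Genes were kept by filterByExpr (minimum count 10), which left 17131 genes with 99.95% of the counts. TMM scaling, 1 mean per group and quasi-likelihood F tests with Benjamini-Hochberg adjustment over all 17131 genes were run in edgeR 4.0.16 (R 4.3.3), and tested on simulated data. A call is an adjusted p below 0.05, or, where stated, below 0.01 with a log2 fold change beyond 1. CPM was computed after TMM scaling, and log2 CPM used a prior count of 2. The label term came from a fit of group plus label series. The p-values set a difference against the spread between single mice within groups, taken over all groups of the fit. In the vehicle and KW6002 groups that spread includes both label series. The closest pair of replicate libraries still differed by more than counting noise.

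The members, the list of other clock genes, the marker lists and the tests were chosen with earlier results of these data known. Named beside the members are the 4 other clock genes with the largest change past the threshold under cisplatin, and the 3 most similar profiles (average log2 CPM of at least 1) for Arntl, Per2 and Nr1d1. Promoters were to be shown for Arntl, Per2, Nr1d1 and the member with the largest change under cisplatin in the fit of all kidneys, each as the entry with motif matches. Alternatives were DESeq2 1.42.0, other scalings and filters, a block for replicate number, fits restricted to the contrasted groups or to c5 or c3 kidneys, the label series as a covariate, and each of the 22 libraries left out in turn. Intervals were not computed from counts, since replicate spread exceeds counting error.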

Additional observations from a re-analysis of the deposited data

Results flagged for a closer look

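Arntl stood out for opposite values in both label series of the kidneys without cisplatin. Its mean with KW6002 was 1.92 times that of vehicle in kidneys with c3 labels (3 against 3) and 0.612 times in kidneys with c5 labels (3 against 2), and in neither series did KW6002 and vehicle kidneys overlap. Read the other way, c3 kidneys held 0.803 times the Arntl of c5 kidneys with vehicle and 2.52 times with KW6002, again without overlap. The difference between the series was not tested. None of the 40 sets of kidneys examined, 10 genes in 4 groups, held a single kidney far from the rest by Dixon's criterion, which flags about 1 set in 20 by chance.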

How the results depend on the processing

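The number of members past the threshold was 9 for cisplatin against vehicle, 1 for co-treated against cisplatin kidneys and 8 for co-treated against vehicle kidneys. At the stricter limits (adjusted p under 0.01, log2 fold change past 1) these counts were 2, 0 and 5 (edgeR; for the 0, 1 member had an unadjusted p below 0.05 and DESeq2 called 1 at an adjusted p below 0.05). For co-treated against cisplatin kidneys the count went to 6 with only the groups compared, to 6 with only c5 kidneys, to 4 with the label series as a covariate and to 3 with the replicate number as a block; the other clock genes went from 7 to 11 with only c5 kidneys. Between the fit of all kidneys and that of only the groups compared, the log2 fold changes stayed and some standard errors shrank. Nr1d1 was at -0.83 with an SE of 0.43 and then 0.15, and Cry1 at 0.49 with 0.26 and then 0.10. Clock was at -0.29 with an SE of 0.07 in both. The fit of all kidneys takes a single dispersion per gene over all groups, and the other fit takes it from the contrasted groups only. How much of the change in SE this accounts for was not tested. Cisplatin against vehicle had 10 members past the threshold when fitted on those groups alone, and also with a label series term. In the median absolute log2 fold change of the members, KW6002 against vehicle went from 0.254 to 0.661 with only c5 kidneys and to 0.500 with only c3 kidneys.

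Leaving out 1 library at a time gave 9 to 10 members for cisplatin against vehicle, 1 to 2 for co-treated against cisplatin (2 without vehicle replicate 3, when Per2 had an adjusted p of 0.0430) and 8 to 8 for co-treated against vehicle. The other clock genes gave 15 to 16, 7 to 7 and 13 to 15. The median absolute value over members ran from 0.204 to 0.387 for KW6002 against vehicle and from 0.439 to 0.654 for the label series.

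Scaling by library size only moved the median of all genes by 0.204 (log2) for cisplatin against vehicle, and Per3, at -0.18, then missed the threshold (adjusted p = 0.0690, against 5.65e-04 with TMM). Clock passed for co-treated against vehicle kidneys under that scaling (0.26, adjusted p = 0.00428), where the median of all genes moved by 0.155. Signs that reversed belonged to uncalled differences near 0 in co-treated against cisplatin kidneys: Per1 at -0.0096 with library size only and -0.0156 with the block, Per3 at -0.0259 with library size only and from -0.0038 to 0.0738 with 1 library left out, and Cry2 at 0.0048 with no filter, 0.0315 with the block and from -0.0640 to 0.0297 with 1 library left out. Clock for co-treated against vehicle kidneys was at -7.71e-04 with only c5 kidneys.

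The replicate numbers did not pair the samples: deviations of same-numbered kidneys correlated from -0.175 to 0.405 and not every pair of any contrast exceeded 0.1. With the block, Cry1 (adjusted p = 0.0369) and Nr1d1 (adjusted p = 0.0413) joined Clock in co-treated against cisplatin kidneys, and no other call of a member changed. Depth limits Npas2 most, with 28 counts in its lowest library.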
